A study of Mus musculus with 4 samples.

Results

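Slc1a2, Slc1a3, Glul, Gja1, Gjb6, Aqp4 and Gfap, which encode the glutamate uptake, gap junction, water channel and filament proteins by which astrocytes are commonly recognised, were followed across cell classes and mouse backgrounds in the lateral septum (LS). These 7 genes were chosen by symbol from the 32285 genes of the deposited count matrices, and all 7 were found there. Single-nucleus RNA sequencing counts the RNA molecules of each nucleus by their unique molecular identifiers (UMIs). The 4 libraries came from LS tissue of male mice aged 6 to 8 weeks, each pooled from 3 mice per the study's methods: C57J 1 and C57J 2 from C57BL/6JNifdc mice, nude from BALB/c nude mice and BALB/c from BALB/c mice. The nude mice lack T cells and were derived from the BALB/c strain, so nude and BALB/c share a strain background, whereas strain and immune status cannot be told apart between C57J and BALB/c. C57J 1 belonged to batch 1 and the other 3 libraries to batch 2.

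Astrocytes clear glutamate from the synaptic cleft through GLT-1 (Slc1a2) and GLAST (Slc1a3), and glutamine synthetase (Glul) converts it to glutamine, which is handed back to neurons. Connexin 43 (Gja1) and connexin 30 (Gjb6) form the gap junctions that couple astrocytes into networks. Aquaporin-4 (Aqp4) is the water channel concentrated at the endfeet that contact vessels, and GFAP is an intermediate filament protein that accumulates in reactive astrocytes. Gfap RNA is known to be sparse in many gray matter astrocytes.

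All 7 genes were found by identifier in GENCODE vM21, and positions are printed for 6 of them, without Aqp4. These 6 lie in that annotation (GRCm38, the mm10 build of the files) at chr2:102658659-102790784 on the plus strand (Slc1a2), chr15:8634124-8710764 on the minus strand (Slc1a3), chr1:153899944-153909723 on the plus strand (Glul), chr10:56377330-56402513 on the plus strand (Gja1), chr14:57123303-57133611 on the minus strand (Gjb6) and chr11:102887336-102900912 on the minus strand (Gfap). The annotation places the antisense gene Gm13872 on the opposite strand within Slc1a2, Teddm2 opposite part of Glul, AC133525.2 opposite part of Aqp4 and Gm26668 opposite Gfap, and Gm37310 lies on the same strand within Slc1a3. Of these 5 genes, Gm13872 and Teddm2 are in the count matrices, and whether the counting used strand is not stated, so reads from these overlaps may be uncertain. Each UMI is read from the 3' end of a transcript, so the values below are per gene and do not separate isoforms.

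The 250 bases upstream of the RefSeq start are shown for both connexins and for Gfap (GRCm38.p6, 5′ to 3′ on the strand of each gene, chr10:56377050-56377299, chr14:57133612-57133861 and chr11:102897201-102897450). The connexins parted in astrocyte clusters described below, and Gfap was highest in 1 of these clusters. Capitals mark matches to AGGTCA, the core bound by ROR receptors, on either strand.
Gja1: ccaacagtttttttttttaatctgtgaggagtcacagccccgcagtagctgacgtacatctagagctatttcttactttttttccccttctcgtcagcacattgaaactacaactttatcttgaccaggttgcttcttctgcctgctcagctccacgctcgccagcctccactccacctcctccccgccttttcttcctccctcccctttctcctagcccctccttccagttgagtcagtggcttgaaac
Gjb6: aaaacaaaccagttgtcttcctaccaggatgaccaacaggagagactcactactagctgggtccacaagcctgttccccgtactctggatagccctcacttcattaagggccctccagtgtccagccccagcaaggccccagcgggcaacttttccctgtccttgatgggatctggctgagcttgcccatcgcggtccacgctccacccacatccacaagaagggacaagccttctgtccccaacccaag
Gfap: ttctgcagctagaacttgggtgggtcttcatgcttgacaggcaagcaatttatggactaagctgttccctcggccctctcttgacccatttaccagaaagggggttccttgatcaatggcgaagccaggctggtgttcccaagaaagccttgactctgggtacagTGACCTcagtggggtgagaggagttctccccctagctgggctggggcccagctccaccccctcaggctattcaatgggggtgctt
Of 6 motifs searched on both strands, AGGTCA occurred once in the Gfap window and is held by 14.0% of all 32851 promoter windows of this length. The other motifs were not in these 3 windows. They were TTGGCA, the core of the NFI site, which 12.3% of windows hold. The SOX core ACAATG is held by 10.7% and the E box CACGTG by 6.02%. The GC box GGGCGG is held by 32.7% of windows and the TATA box TATAAA by 12.4%.

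After quality limits and removal of predicted doublets, 49425 nuclei remained, of which 7654 were astrocytes (C57J 1 gave 2090, C57J 2 gave 1896, nude gave 1807 and BALB/c gave 1861). The 7 genes were withheld from clustering and naming, and astrocytes were named from 8 other markers (Gpc5, Ntsr2, Plpp3, Acsbg1, Aldh1l1, Bmpr1b, Fgfr3 and Cldn10), all of which were detected in the astrocytes of every library. The libraries held 72912922 to 125998527 UMIs, and the median astrocyte nucleus of these libraries held 2698, 1990, 2102 and 4370 UMIs in the same order. RNA of other cells was present in astrocyte nuclei. The summed level of 5 neuron markers was 1597, 1753, 2064 and 816 CPM (UMIs of a gene per 1e6 UMIs of the class) in C57J 1, C57J 2, nude and BALB/c, respectively, all 5 being detected in each. The sum of 5 striatal neuron markers was 236, 222 and 209 CPM in C57J 1, C57J 2 and nude and 1470 in BALB/c. BALB/c held 425 striatal neuron nuclei, compared with 1578, 713 and 481 in C57J 1, C57J 2 and nude. Whether its striatal sum came from other cells was not tested.

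Levels are given as CPM, from raw UMIs summed over the nuclei of a class, without correction for transcript length, so that levels of different genes are not compared. Of the UMIs of each gene in the kept nuclei, astrocytes held 62.6% for Slc1a2, 72.5% for Slc1a3, 43.8% for Glul, 65.1% for Gja1, 74.6% for Gjb6, 58.3% for Aqp4 and 43.8% for Gfap. Neurons, which made up most nuclei, held 17.0% (Slc1a3) to 41.8% (Gfap) of the UMIs of a gene. The astrocyte level was above that of every neuronal class in every library for all 7 genes.

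In astrocytes, Slc1a2 was at 6752, 5535, 5693 and 8033 CPM in C57J 1, C57J 2, nude and BALB/c, respectively. Slc1a3, the other glutamate transporter, was at 2659, 2529, 2796 and 3092 CPM in the same order. Glul was at 691, 435, 502 and 722 CPM. Slc1a3 varied least of the 7 genes, by 1.22-fold between the highest and the lowest library, compared with 1.45-fold for Slc1a2 and 1.66-fold for Glul. For Slc1a3 both libraries of the BALB/c background lay above both C57J libraries, whereas for Slc1a2 and Glul the C57J libraries overlapped the other 2.

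The connexins varied more between libraries. Gja1 was at 528, 344, 320 and 573 CPM in C57J 1, C57J 2, nude and BALB/c. Gjb6 was at 167, 95.4, 106 and 222 CPM in the same order, a 2.33-fold range that was the widest of the 7 genes. Both connexins were higher in C57J 1 than in C57J 2 (1.53-fold for Gja1 and 1.75-fold for Gjb6) and higher in BALB/c than in nude (1.79-fold and 2.09-fold), and the C57J libraries overlapped the other 2 for both.

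Aqp4 was at 183, 179 and 182 CPM in C57J 1, C57J 2 and BALB/c and at 113 CPM in nude. Gfap was at 41.7, 35.6, 22.0 and 31.0 CPM in C57J 1, C57J 2, nude and BALB/c. Nude held the lowest level of both genes. With 1 nude and 1 BALB/c library, this difference could not be tested.

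For 5 of the 7 genes (Slc1a2, Glul, Gja1, Gjb6 and Aqp4), C57J 1 and BALB/c were both above C57J 2 and nude, an order that 12.5% of the 14128 genes tested in astrocytes had. Aqp4 had it by a small margin, at 182 CPM in BALB/c and 179 in C57J 2. Among nuclei thinned to 1000 UMIs, 15.3% carried an Aqp4 UMI in BALB/c and 15.9% in C57J 2. C57J 1 and BALB/c were also the libraries with the most UMIs per astrocyte nucleus and with the lowest summed level of neuron markers in astrocytes. This order was looked for after the values were seen. The part in it of depth, of neuronal RNA and of the striatal marker sum of BALB/c was not tested.

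Within astrocytes, 3 clusters each held at least 50 nuclei in every library: a main cluster of 4789 nuclei led by Emx2os, St6galnac5 and Grin2c, a cluster of 1775 nuclei with Lrig1 and Slc6a11 among its leading genes (the Lrig1 cluster) and a cluster of 1064 nuclei with Thbs4 and Dkk3 among its leading genes (the Dkk3 cluster). A further 26 astrocyte nuclei fell outside them. The clusters were made from the same nuclei, so their levels are given as a description. The summed level of the 8 astrocyte markers was 112% to 116% of the main cluster in the Lrig1 cluster and 31.4% to 38.3% in the Dkk3 cluster, in which all 8 were still detected in every library. The median nucleus of the Dkk3 cluster held 1683 to 3560 UMIs, compared with 2107 to 4478 in the main cluster. The Dkk3 cluster and the 49 ependymal nuclei were divided from 1 cluster of non-neuronal nuclei. Its mean relative level of the astrocyte markers, used for naming, was 0.489, beside 0.892 in the main and 0.926 in the Lrig1 cluster. Its summed level of 6 ependymal markers was 27.1 to 41.1 CPM, compared with 6.03 to 13.1 in the main and 4.12 to 16.3 in the Lrig1 cluster. The part of ependymal RNA in its levels was not tested.

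The 2 connexins parted in the Dkk3 cluster and, in the other direction, in the Lrig1 cluster. Gjb6 was at 40.7, 37.2, 38.5 and 63.3 CPM in the Dkk3 cluster of C57J 1, C57J 2, nude and BALB/c, compared with 176, 107, 109 and 236 CPM in the main cluster and 196, 98.8, 128 and 258 CPM in the Lrig1 cluster. The highest Dkk3 value was thus below the lowest value of either other cluster. Relative to the main cluster of the same library, Gjb6 in the Dkk3 cluster was at 23.1% to 35.3%, close to the summed markers. Gja1 there was at 75.9% to 78.4% (441, 290, 278 and 471 CPM against 581, 370, 356 and 616 CPM). In the Lrig1 cluster, Gja1 was at 68.5% to 82.7% of the main cluster and Gjb6 at 92.3% to 117%. Among nuclei thinned to 1000 UMIs, 4.39% carried a Gjb6 UMI in the Dkk3 cluster (46 of 1047, exact Clopper-Pearson 95% interval 3.23% to 5.82%), compared with 13.9% in the main cluster (12.9% to 14.9%) and 14.2% in the Lrig1 cluster, and with 0.370% in other GABAergic neurons, where Gjb6 is taken to be background.

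Aqp4 followed Gjb6 in direction, and Gfap did not. Aqp4 was at 83.2, 112, 92.8 and 74.9 CPM in the Dkk3 cluster of C57J 1, C57J 2, nude and BALB/c, or 37.8% to 76.1% of the main cluster, the highest share being that of nude, where the main cluster itself was low (122 CPM). Gfap was at 53.1, 50.2, 36.2 and 63.3 CPM in the Dkk3 cluster, compared with 43.4, 40.1, 21.3 and 25.6 CPM in the main cluster and 33.0, 14.1, 18.2 and 30.9 CPM in the Lrig1 cluster. The Dkk3 cluster was therefore the highest for Gfap in 4 of 4 libraries, although these levels rest on 16 to 60 Gfap UMIs per library. The share of thinned nuclei with a Gfap UMI was 5.16% in the Dkk3 cluster (interval 3.90% to 6.68%), 2.96% in the main cluster (2.50% to 3.48%) and 2.72% in the Lrig1 cluster, compared with 0.301% in other GABAergic neurons.

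The glutamate transporters marked off the Lrig1 cluster instead. Slc1a2 was at 4400, 3694, 3923 and 5306 CPM in the Lrig1 cluster of C57J 1, C57J 2, nude and BALB/c, or 56.7% to 58.8% of the main cluster, and it was at 63.3% to 78.2% in the Dkk3 cluster. Slc1a3 was at 64.5% to 70.2% of the main cluster in the Lrig1 cluster and at 92.1% to 95.5% in the Dkk3 cluster. Both transporters were below the main cluster in the Lrig1 cluster in 4 of 4 libraries, although the summed astrocyte markers were highest there. Gpc5 and Fgfr3, which are among these markers, were also leading genes of the Lrig1 cluster. Glul was highest in the main cluster in every library, at 78.4% to 92.8% of that level in the Lrig1 cluster and 70.6% to 93.2% in the Dkk3 cluster.

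**Figure D1:**
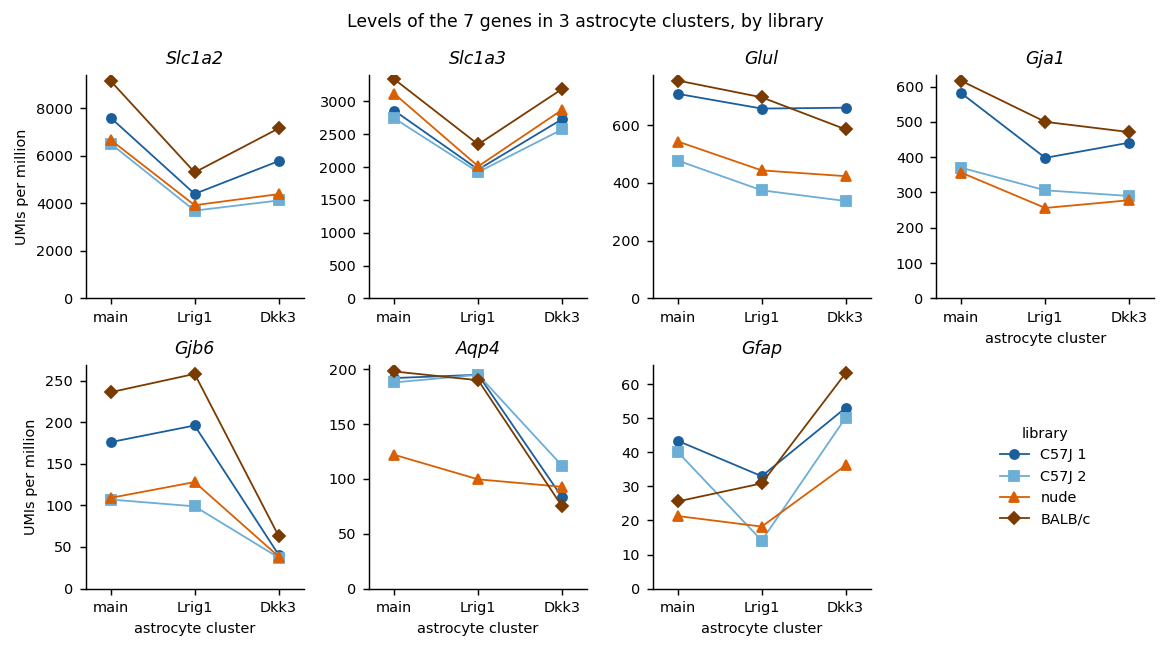
CPM of the 7 genes (y axes, linear from 0) in the main, Lrig1 and Dkk3 astrocyte clusters (x axes), with 1 point per library and lines joining the points of a library. Gjb6 and Aqp4 lie lowest and Gfap lies highest in the Dkk3 cluster in all 4 libraries, and Slc1a2 and Slc1a3 lie lowest in the Lrig1 cluster.

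To set the levels outside astrocytes against RNA that had leaked between nuclei, each was expressed as a percent of the astrocyte level of the same library, beside the same percent of the 8 astrocyte markers. In other GABAergic neurons, the largest class (26092 nuclei), Slc1a2 was at 2.54% to 5.69% and Slc1a3 at 1.16% to 2.46% of the astrocyte level, and the median astrocyte marker was at 1.64% to 3.66%. Gja1 and Gjb6 were at 1.47% to 5.72% and 1.37% to 3.34% in these neurons. Aqp4 was at 2.50% to 6.28%, and the highest of the 8 markers was at 2.97% to 7.31%. Slc1a2 and Aqp4 were each above all 8 markers in 1 of 4 libraries, C57J 1 (5.69% and 5.28% beside 4.71% for the highest marker), and Slc1a3, Gja1 and Gjb6 in 0 of 4. Slc1a2 and Aqp4 were above the median marker in every library. Shares of this size are not read as neuronal expression, and whether they came from leaked RNA was not tested. Glul was at 4.17% to 10.6% and Gfap at 4.20% to 12.7%, and each was above all 8 markers in 2 of 4 libraries.

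Glul, unlike the transporters, was prominent in other glia. In OLs it was at 373, 159, 233 and 314 CPM in C57J 1, C57J 2, nude and BALB/c, or 36.5% to 54.0% of the astrocyte level, whereas the highest of the 8 astrocyte markers reached 13.5% to 21.5% in OLs. In microglia Glul was at 444, 175, 212 and 289 CPM, or 40.1% to 64.2% of the astrocyte level, with the highest marker at 8.94% to 35.4%. Glul was above all 8 markers in 4 of 4 libraries in both classes. It was also above all 8 in 3 of 4 libraries in neuroblasts and in striatal neurons. In striatal neurons, so were Aqp4 in 3 of 4 libraries, Gja1 in 2 of 4 and Slc1a2 and Gjb6 in 1 of 4 each. Gfap met the same limit in 4 of 4 libraries in microglia, neuroblasts and striatal neurons and in 3 of 4 in OLs. Its counts were low, at 30 UMIs in microglia and 20 in neuroblasts. In OPCs Glul was at 211, 70.0, 86.2 and 89.1 CPM, or 12.4% to 30.6% of the astrocyte level, below the highest astrocyte marker (55.0% to 63.3%) in every library. That marker was Gpc5 in each library. The median marker was at 6.25% to 11.7% in OPCs, below Glul in every library.

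In dividing cells, Slc1a3 was higher than in OLs, OPCs and neuroblasts in every library. It was at 806, 515, 798 and 1081 CPM in the 292 dividing nuclei of C57J 1, C57J 2, nude and BALB/c, or 20.4% to 35.0% of the astrocyte level, while the highest of the 8 markers was at 28.0% to 73.4%, and Slc1a3 was above all 8 markers in 2 of 4 libraries. In OLs, OPCs and neuroblasts it was between 182 and 456 CPM. Slc1a3 is also known from radial glia and neural progenitors.

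Small classes of the ventricle and meninges held some of these RNAs near or above the astrocyte level. In 49 ependymal nuclei, Aqp4 was at 162, 228, 101 and 312 CPM in C57J 1, C57J 2, nude and BALB/c (12, 5, 3 and 37 UMIs), or 88.6% to 171% of the astrocyte level, above all 8 markers in 4 of 4 libraries. Gja1 was at 134 to 431 CPM in the same nuclei. In 64 fibroblast nuclei, Gjb6 was at 123, 114, 141 and 262 CPM (2, 2, 2 and 36 UMIs), or 73.9% to 133% of the astrocyte level, and Slc1a3 was at 800, 1085, 1124 and 2095 CPM, whereas Slc1a2 was at 5.34% to 18.2% of the astrocyte level. The fibroblast values rest mainly on the 38 nuclei of BALB/c, in which the exact 95% counting interval of Gjb6 was 183 to 362 CPM and Aqp4 and Gfap had 1 UMI each. Connexin 30 is known from meningeal fibroblasts as well as astrocytes.

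**Figure D2:**
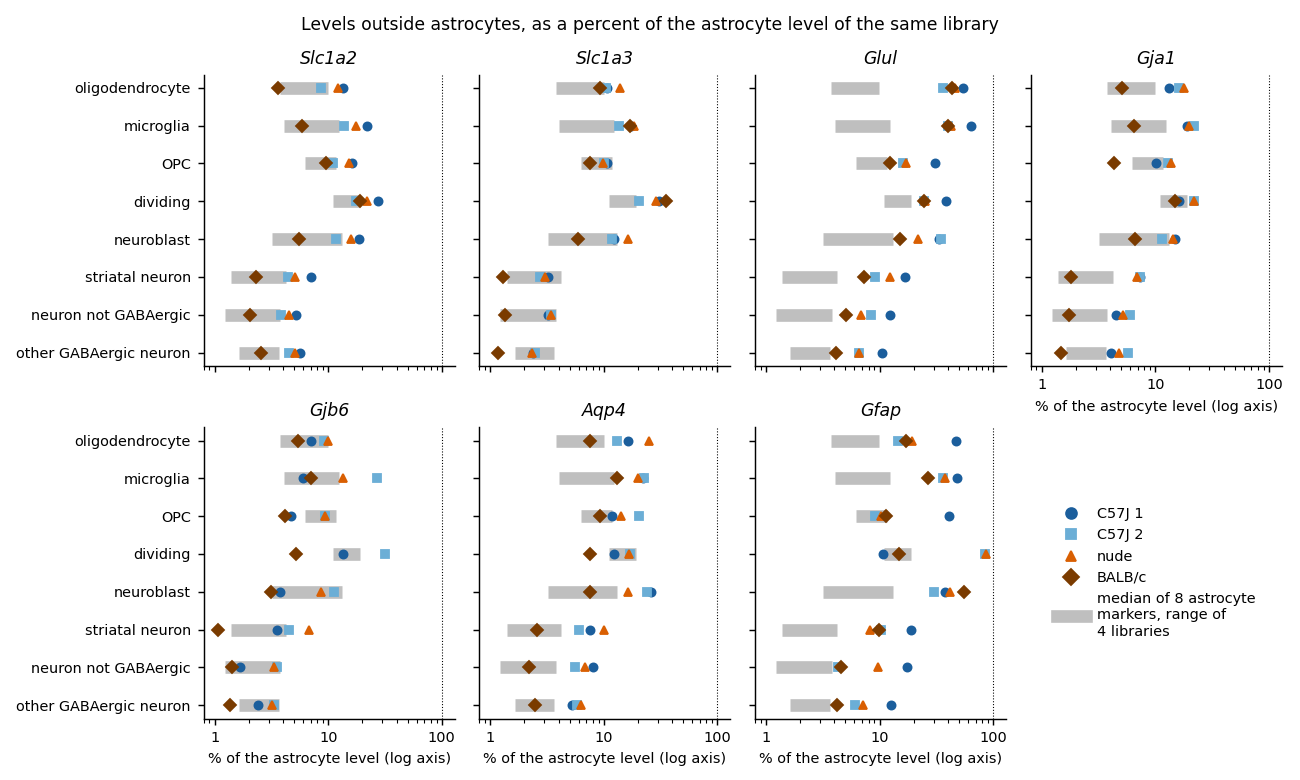
Level of each gene in 8 other classes (rows) as a percent of the astrocyte level of the same library (x axes, log scale), with 1 point per library and values of 0 not drawn. Gray bars span the median of the 8 astrocyte markers over the 4 libraries, and the dotted line marks the astrocyte level. Glul in OLs and microglia lies to the right of the gray bars in all 4 libraries. In neurons, most points of Slc1a3 and Gjb6 lie on or near the bars, and most points of Slc1a2 lie to their right.

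The libraries were not ordered alike outside and inside astrocytes. Slc1a2, Glul and Gja1 were each highest in C57J 1 in 8 of the 8 other classes, whereas in astrocytes they were highest in BALB/c. Glul showed this most plainly: in other GABAergic neurons it was at 73.5 CPM in C57J 1 and at 28.7, 33.1 and 30.1 CPM in C57J 2, nude and BALB/c. The percent of the astrocyte level reached by the median astrocyte marker was lowest in BALB/c in 8 of 8 classes and highest in C57J 1 in 1 of 8. The genes above were ordered by CPM and the markers by this percent, so the 2 orders are not set against each other. As a percent in other GABAergic neurons, Slc1a2 and Glul were highest in C57J 1 (5.69% and 10.6%). Gja1 was highest in C57J 2 (5.72%, beside 4.09% in C57J 1). Each of these genes was lowest in BALB/c there, as was the median marker. C57J 1 was the only library of batch 1, so library and batch cannot be told apart here.

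After thinning every nucleus to 1000 UMIs, which left out 59 astrocytes, 98.1% of 7595 astrocyte nuclei carried an Slc1a2 UMI and 89.7% an Slc1a3 UMI. The share was 42.7% for Glul, 34.1% for Gja1, 14.4% for Aqp4, 12.6% for Gjb6 and 3.21% for Gfap. In other GABAergic neurons, the shares were 25.9%, 6.55%, 4.58%, 1.97%, 0.926%, 0.370% and 0.301% in the same order. In microglia, 55.6% of nuclei carried an Slc1a2 UMI and 22.8% a Glul UMI, so a single Slc1a2 UMI did not mark an astrocyte in these libraries. Without thinning, the astrocyte shares were 99.6% (Slc1a2), 97.9% (Slc1a3), 72.4% (Glul), 63.3% (Gja1), 33.8% (Aqp4), 32.4% (Gjb6) and 7.50% (Gfap). Median depths in C57J 1, C57J 2, nude and BALB/c were 2698, 1990, 2102 and 4370 UMIs in astrocytes and 7890, 6208, 6162 and 12556 UMIs in other GABAergic neurons. The intervals cover counting error only.

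Counting how many of the 7 genes a thinned nucleus carried, astrocytes carried 3.11, 2.73, 2.72 and 3.19 on average in C57J 1, C57J 2, nude and BALB/c, and other GABAergic neurons carried 0.512, 0.383, 0.417 and 0.288. At least 3 of the 7 were found in 72.6%, 56.8%, 57.8% and 75.8% of astrocytes, compared with 0.189% to 0.768% of other GABAergic neurons. Within astrocytes, the Dkk3 cluster had the lowest mean number in every library, from 2.42 to 2.86.

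**Figure D3:**
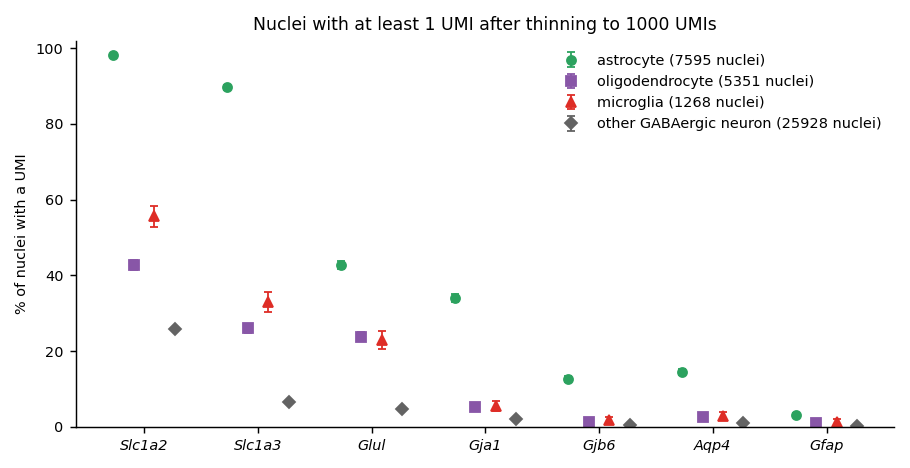
Percent of nuclei with at least 1 UMI of each gene after thinning to 1000 UMIs per nucleus (y axis), for astrocytes, OLs, microglia and other GABAergic neurons of all 4 libraries together, with exact 95% intervals as bars. Slc1a2 is found in nearly all astrocytes, at 98.1%, and also in 25.9% of other GABAergic neurons, whereas Gfap is found in 3.21% of astrocytes.

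The question of the study's cohorts, whether astrocyte genes differ between C57J mice and mice of the BALB/c background, was addressed by testing UMIs summed per library, 2 C57J libraries against nude and BALB/c (edgeR quasi-likelihood test, Benjamini-Hochberg adjustment over all genes, with a call needing an adjusted p under 0.05 together with a change of over 0.5 on the log2 scale in either direction). None of the 7 genes was called in astrocytes by edgeR or by DESeq2, and 0 of 7 had an unadjusted edgeR p below 0.05. The background was low, since 8 of 14128 genes were called (0.0566%). Log2 fold changes (nude and BALB/c over C57J, ± SE) were 0.24 ± 0.30 for Slc1a2, 0.26 ± 0.22 for Slc1a3, 0.20 ± 0.31 for Glul, 0.12 ± 0.35 for Gja1, 0.41 ± 0.42 for Gjb6, -0.21 ± 0.26 for Aqp4 and -0.45 ± 0.24 for Gfap, beside a median of -0.02 over all genes tested. The smallest adjusted p was 0.753, for Gfap. For 2 of the 7, Slc1a3 and Gfap, the C57J levels did not overlap the other levels, as was the case for 38.1% of all tested genes.

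Within batch 2, where only C57J 2 stood against nude and BALB/c, the log2 fold changes were 0.40 (Slc1a2), 0.31 (Slc1a3), 0.58 (Glul), 0.47 (Gja1), 0.88 (Gjb6), -0.18 (Aqp4) and -0.32 (Gfap), with an adjusted p of 0.999 for each by edgeR. Without the nude library, Gjb6 was called, at a log2 fold change of 0.88 and an adjusted p of 0.0258 (edgeR), in a fit of 1 BALB/c library against 2 C57J libraries that called 7.88% of all genes (1194 of 15161). Without the BALB/c library, the log2 fold change of Gjb6 was -0.29. Batch 1 held 1 library and gives no value of its own.

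**Figure D4:**
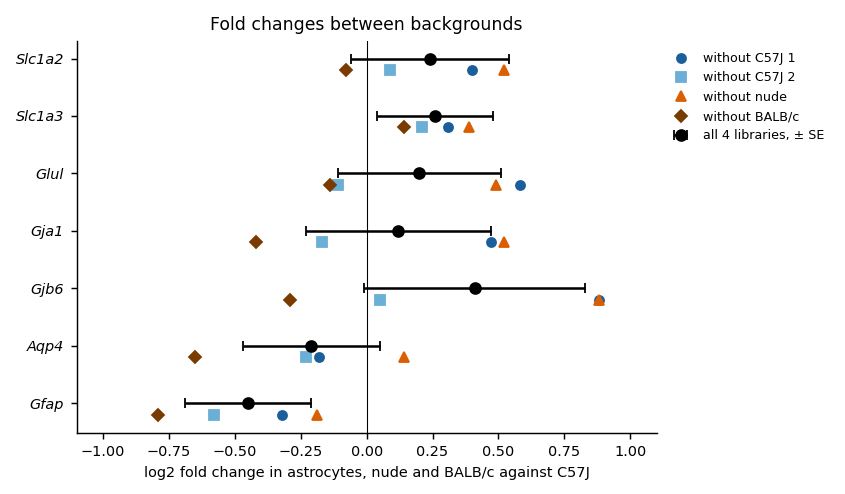
Log2 fold change of each gene in astrocytes, nude and BALB/c against C57J (x axis), with all 4 libraries (black points, bars ± SE) and with each library left out (colored points). The points of Slc1a2, Glul, Gja1, Gjb6 and Aqp4 lie on both sides of 0, whereas those of Slc1a3 stay above and those of Gfap below it.

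In 8 other classes, 47 pairs of gene and class passed the filter on low counts and 9 did not. None was called by edgeR or DESeq2, while the share of all genes called by edgeR was 0% in microglia and dividing cells, 0.00788% in OLs, 0.0171% in neuroblasts, 0.343% in OPCs, 0.420% in neurons that are not GABAergic, 0.556% in striatal neurons and 2.21% in other GABAergic neurons. An unadjusted edgeR p below 0.05 was found for 11 of the 47 pairs, beside 8.88% of all 88896 pairs of gene and class tested, from 4.87% in dividing cells to 14.7% in other GABAergic neurons. All 11 were lower in nude and BALB/c, and 5.04% of all pairs were lower with such a p. The 11 pairs involved Aqp4, Gja1, Glul and Gfap in neurons, neuroblasts and OPCs. They share the same 4 libraries, and the part in them of RNA leaked from astrocytes was not tested. The smallest adjusted p was 0.185, for Aqp4 in other GABAergic neurons (log2 fold change -0.77 ± 0.23, edgeR), where Aqp4 was at 9.64, 10.4, 7.12 and 4.56 CPM in C57J 1, C57J 2, nude and BALB/c, or 2.50% to 6.28% of the astrocyte level. Calls appeared without C57J 2 (8 of 50 pairs, beside 1.63% of all pairs of gene and class), without nude (6 of 51, beside 3.06%) and without the filter on low counts (7 of 56, beside 1.41%), compared with 0.668% of all pairs in the fits with all 4 libraries and the filter.

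Whether the backgrounds differed by a different amount in the 3 astrocyte clusters was tested as an interaction of cluster and background, with the library as a term. None of the 7 genes passed, in a test that called 15 of 11814 genes (0.127%). For Gfap the unadjusted p was 0.00851 and the adjusted p 0.715 (edgeR), and its log2 fold change between backgrounds differed by -0.85 between the main and the Dkk3 cluster (main minus Dkk3). Without nude, Gfap passed at an adjusted p of 0.0246 (edgeR), in a fit in which 291 of 12672 genes passed. For the other 6 genes, the estimates of the 2 interaction terms were between -0.08 and 0.11 and the unadjusted edgeR p was at least 0.738.

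The wider pathways were described from 5 lists, in which no gene was called in astrocytes. Of 17 tested genes of the glutamate and glutamine cycle and of amino acid and GABA transport, 7 had a log2 fold change above 0 and 10 below, with a median of -0.11. The largest belonged to the cystine-glutamate exchanger Slc7a11 (-0.48 ± 0.23, at 335, 360, 193 and 277 CPM in C57J 1, C57J 2, nude and BALB/c) and the neuronal glutamate transporter Slc1a1 (-0.35 ± 0.33). Slc1a1 was at 37.1, 42.7, 41.5 and 19.7 CPM in the same order, low in BALB/c alone. The summed neuron markers in astrocytes were also lowest in BALB/c, and their part in the Slc1a1 values was not tested. Slc38a3, which exports glutamine from astrocytes, was at 116, 89.8, 80.0 and 89.5 CPM, the 2 C57J libraries lying just above the others.

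Of 9 tested genes of gap junctions and pannexins other than Gja1 and Gjb6 (0.12 and 0.41), 8 had a log2 fold change below 0, with a median of -0.53, beside 52.5% of all tested genes below 0. Gjb1, a connexin of OLs, was at 3.08, 5.27, 2.25 and 1.53 CPM in C57J 1, C57J 2, nude and BALB/c (-1.08 ± 0.48). The summed level of 6 OL markers in the same astrocytes was 977, 1186, 774 and 599 CPM in the same order, ranking the libraries as Gjb1 did, and its part in the Gjb1 values was not tested. Gjb2, the connexin 26 partner of Gjb6, was at 4.79, 2.26, 3.50 and 6.72 CPM (0.62 ± 0.52).

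Of 17 tested genes of endfeet, water and ion homeostasis, 9 were above 0 and 8 below, with a median of 0.06. Kcnj10, the potassium channel Kir4.1 that shares endfeet with Aqp4, was at 137, 128, 166 and 210 CPM in C57J 1, C57J 2, nude and BALB/c (0.58 ± 0.19, adjusted p = 0.586, edgeR), and its partner Kcnj16 at 27.0, 26.1, 30.8 and 44.5 CPM (0.59 ± 0.24). Neither was called. Both were higher in nude and BALB/c without overlap, and 7 of the 17 genes of this list did not overlap, beside 38.1% of all tested genes. The chloride channel Clcn2 was at 52.4, 35.9, 30.3 and 19.0 CPM (-0.80 ± 0.29).

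Of 11 tested genes of intermediate filaments and reactive astrocytes, 8 were above 0 and 3 below, with a median of 0.14. Vim and Synm, which encode the filament partners vimentin and synemin, were above 0, at 1.12 ± 0.38 and 0.66 ± 0.20, opposite in sign to Gfap (-0.45), and none of the 3 was called. Vim was at 7.19, 4.52, 9.25 and 14.9 CPM and Synm at 17.8, 17.1, 29.5 and 23.5 CPM in C57J 1, C57J 2, nude and BALB/c. Of the reactive genes of this list, Lcn2 had 0 UMIs in the astrocytes of all 4 libraries, but others were present. C4b was at 26.5, 30.4, 31.8 and 28.1 CPM and Serpina3n at 5.47, 5.02, 5.00 and 8.38 CPM in C57J 1, C57J 2, nude and BALB/c. Among 8 astrocyte transcription factors (median 0.19), Hes5, a target of Notch signaling, was at 106, 126, 61.8 and 47.3 CPM (-1.02 ± 0.18), with an adjusted p of 0.211 (edgeR) that was the smallest of the 5 lists. Rorb was at 0.29 ± 0.26.

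The genes whose levels ran most like those of a given gene over 9 classes and 4 libraries (Pearson correlation of log2(CPM + 1) over 36 points that share libraries and the astrocyte contrast, 14563 genes ranked) were mainly astrocyte genes. For Slc1a2 they were Fgfr3 (r = 0.977), Ntsr2 (0.968) and Emx2 (0.966), and for Gja1 they were Ntsr2 (0.973), Slc1a2 (0.965) and Fgfr3 (0.964). For Slc1a3 they were Lfng (0.965), Mfge8 (0.941) and Apoe (0.940), and for Glul they were Aldoc (0.937), 2310022B05Rik (0.935) and Mt1 (0.925). For Aqp4 they were Clu (0.947), Gja1 (0.945) and Ntsr2 (0.943), and for Gfap they were Clu (0.859), Gstm1 (0.853) and Id4 (0.840). For Gjb6 they were Nat8f4 (0.891), Acot11 (0.891) and Cep85l (0.885). Among the 7 genes, Slc1a2 and Gja1 were the most alike (0.97) and Gjb6 and Gfap the least (0.62).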

How the data were processed

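Nuclei of 4 pooled LS libraries were profiled with the 10x 3' assay. The authors ran Cell Ranger 7.0.1 on mm10 and deposited count matrices of raw UMIs that had not been normalized. Whether intronic reads and strand were used is not given in the sources used here. Kept barcodes had between 200 and 6000 genes, between 300 and 50000 UMIs, and a mitochondrial share under 2% (12080 to 14836 per library). Doublets were predicted within libraries and removed at 0.8% per 1000 nuclei, leaving 10913 to 13075 nuclei with a median of 4040 to 8193 UMIs. Pairs of libraries shared 29 to 63 barcode sequences.

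The 4 libraries were clustered together in place of the study's integration, without the 7 genes and 109 genes that differed between backgrounds. Clusters were named from marker lists at a mean relative level of 0.4 (0.25 for neurons and 0.3 for GABAergic neurons, the last set after seeing clusters). Depth per class sets the precision, and the counts behind small classes are printed.

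UMIs were summed per library and class and tested with edgeR 4.0.16 in R 4.3.3 (filterByExpr, TMM, quasi-likelihood F test), with DESeq2 1.42.0 as an alternative. The library, of pooled mice, is the unit of these tests, and nuclei are not replicates. The spread behind the p-values is that between C57J pools of different batches and between a nude and a BALB/c pool. It mixes pool, batch and genotype, so it does not measure the spread between like pools alone. The astrocyte edgeR fit was also run on counts simulated without batch. The outcome is not reported here, and a lack of calls is not read as a lack of difference. Levels between classes carry no test. The genes, lists and tests were chosen with earlier results of these data known. From each list the text names the 2 genes with the largest absolute fold change and the genes Kcnj10, Slc38a3, Gjb2 and Vim, and for each of the 7 genes the 3 most alike. Some genes that this rule names are not reported here. Lcn2, C4b and Serpina3n were chosen after their values were seen. Alternatives were other size factors, no low-count filter, other depths, quality limits, doublets kept, other clusterings and each library left out.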

Additional observations from a re-analysis of the deposited data

How the results depend on the processing

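The log2 fold changes of the 7 genes in astrocytes kept their sign in 70 of 70 values under settings that used all 4 libraries, and none of these was called. With a library left out, 7 of 28 reversed. The lowest and highest values were -0.08 and 0.52 for Slc1a2, 0.14 and 0.39 for Slc1a3, -0.14 and 0.58 for Glul (-0.11 without C57J 2), -0.42 and 0.52 for Gja1 (-0.17 without C57J 2), -0.29 and 0.88 for Gjb6, -0.65 and 0.14 for Aqp4, and -0.79 and -0.19 for Gfap. The number of the 7 genes called in astrocytes was 0 to 1 with a library left out, as was the number with an interaction, and 0 under all other settings run. In other classes, 7 pairs were called without the filter on low counts and 0 to 8 with a library left out.

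The count of all genes called in astrocytes, 8, was 98 with DESeq2, 274 without the filter, 27 with predicted doublets kept, 15 in astrocyte nuclei at or under the median share of neuron marker UMIs (chosen after seeing the data) and 0 to 1194 with a library left out (1194 without nude, 103 without BALB/c and 0 without either C57J library). The cause was not tested.

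Shares of astrocyte nuclei with a UMI rose with depth by construction: thinned to 2000 UMIs they were 99.7% (Slc1a2), 98.3% (Slc1a3), 68.3% (Glul), 57.1% (Gja1), 26.5% (Gjb6), 26.6% (Aqp4) and 5.39% (Gfap), and without thinning 99.6%, 97.9%, 72.4%, 63.3%, 32.4%, 33.8% and 7.50% in the same order. Mean astrocyte levels moved by less than 1 SD between libraries in 21 of 21 values (mean over nuclei, doublets kept, stricter quality limits). A limit to nuclei without any UMI of other classes' markers was not run, since it left 0 to 9 nuclei per class and library. No paired analysis was possible because nude and BALB/c have 1 library each, which shares only the number 1 with C57J 1, from another batch.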
